A study of Homo sapiens with 2 samples.

Results

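CIITA and the MHC class II genes were examined in MDA-MB-231 cells, an established human triple negative breast cancer line, and in RT-R-MDA-MB-231, its radiotherapy-resistant derivative. The members are the 10 genes CIITA, CD74, HLA-DRA, HLA-DRB1, HLA-DPA1, HLA-DPB1, HLA-DMA, HLA-DMB, HLA-DOA and CTSS, found by symbol among 24462 gene symbols, and all 10 were present in both count tables. They were chosen with their counts in these 2 libraries known, so what follows describes their values and is not a test of them. The RT-R cells had been given X-rays in 2 Gy doses until 50 Gy was reached, whereas no irradiation is given for the parental cells. Both lines grew in the same medium, with 10% serum and 1% antibiotics. Neither genotype nor clonality of the lines is given in the sources used here.

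The data come from 1 library for each line, built on 500 ng of total RNA with a 3' tag kit, in which a read stands for the end of a polyadenylated transcript. Totals were 9255008 counts for parental and 10014804 for RT-R cells. With 1 library per line there is no replicate check and no p-value, and the 95% intervals cover counting error only. PCR copies of a molecule are counted as separate reads, so even the counting error may be larger than stated. Of the receptors that the triple negative label refers to, ESR1 had 0 parental and 1 RT-R count, PGR had 0 in both and ERBB2 had 230 and 174. The keratin gene KRT18 (2525 and 2816 counts) and the mesenchymal gene VIM (4310 and 8454) were present in both.

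MHC class II molecules are paired alpha and beta chains that show peptides from endosomes to CD4+ T cells. Professional antigen-presenting cells make them constitutively, and many other cells, tumour cells included, make them after interferon-gamma, which acts through IRF1, among other factors, on the gene CIITA. The CIITA protein does not bind DNA itself. It is recruited by the RFX complex, CREB-type factors and NF-Y, which sit on the X and Y boxes of class II promoters, and it is needed for transcription of the class II chains, of the invariant chain CD74 and of the HLA-DM chains. CD74 blocks the peptide groove until proteases such as cathepsin S (CTSS) trim it to a short remnant, which HLA-DM then exchanges for peptide while HLA-DO restrains HLA-DM.

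The promoter sequences are shown first, because they are what the class II genes and CD74 are known to share. RefSeq promoter windows of assembly GRCh38.p14, from 250 bases before to 50 after the transcript start, were matched by symbol for 7 of the 10 members. HLA-DPA1 had 2 windows, giving 8 in all, and HLA-DRA, CIITA and CTSS had none in the table. The stretch from 160 to 11 bases before the start is printed on the gene's own strand, 5' to 3', for HLA-DRB1 (chr6:32589859-32590008, minus strand), HLA-DOA (chr6:33009602-33009751, minus), HLA-DPA1 at its downstream start (chr6:33073660-33073809, minus), HLA-DMB (chr6:32941039-32941188, minus), HLA-DMA (chr6:32953108-32953257, minus), HLA-DPB1 (chr6:33075830-33075979, plus) and CD74 (chr5:150412921-150413070, minus). Capitals mark the X1 box core AGNAAC and the Y box core ATTGG, each on either strand, so that CCAAT is a Y box core read on the other strand.
HLA-DRB1: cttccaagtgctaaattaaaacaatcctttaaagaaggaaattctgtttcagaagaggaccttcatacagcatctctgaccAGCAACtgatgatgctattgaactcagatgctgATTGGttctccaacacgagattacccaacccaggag
HLA-DOA: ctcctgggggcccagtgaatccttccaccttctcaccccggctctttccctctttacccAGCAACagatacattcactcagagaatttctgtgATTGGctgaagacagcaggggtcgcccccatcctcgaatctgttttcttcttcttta
HLA-DPA1: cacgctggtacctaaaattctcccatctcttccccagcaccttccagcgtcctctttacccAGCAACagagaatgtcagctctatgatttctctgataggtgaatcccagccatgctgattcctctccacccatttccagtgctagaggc
HLA-DMB: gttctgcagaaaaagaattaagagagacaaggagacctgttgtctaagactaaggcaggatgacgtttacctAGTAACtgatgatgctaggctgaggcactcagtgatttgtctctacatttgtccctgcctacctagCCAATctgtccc
HLA-DMA: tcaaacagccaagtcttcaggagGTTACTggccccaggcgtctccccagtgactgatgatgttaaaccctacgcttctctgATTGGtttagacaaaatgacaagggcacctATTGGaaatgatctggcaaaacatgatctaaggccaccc
HLA-DPB1: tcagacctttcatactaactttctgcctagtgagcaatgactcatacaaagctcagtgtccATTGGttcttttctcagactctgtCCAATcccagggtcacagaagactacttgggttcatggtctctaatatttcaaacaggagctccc
CD74: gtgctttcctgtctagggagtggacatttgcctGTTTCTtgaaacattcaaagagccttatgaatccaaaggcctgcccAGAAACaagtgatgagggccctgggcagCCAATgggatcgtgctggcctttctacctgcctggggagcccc

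The Y box core, the site type bound by NF-Y, was found in 6 of the 8 member windows, and in 34.6% of all 35116 windows in the table. The X1 box core, the site type of the RFX complex, was found in 6 of 8 and in 42.4% of all windows. The X2 core TGACG, part of a CREB-type site, was found in 4 of 8 and in 24.6% of all. Such short cores are therefore common anywhere. In none of the 4 windows did TGACG lie directly after an X1 core. That of HLA-DMB lay at -100, before the X1 core at -88. The ordered pair of an X1 core followed on the same strand by a Y core starting 20 to 45 bases later was rarer, with 392 windows or 1.12% of all. HLA-DRB1 held it with 33 bases between the starts of the 2 cores, and HLA-DOA with 34. CD74 carried an X1 core at -81 and a Y core on the opposite strand at -53, so its spacing resembled the pair but its Y core was turned round.

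The windows of HLA-DRB1, HLA-DMB and HLA-DMA hold the same 10 letters, ACTGATGATG. It is the longest run that the windows of at least 3 members share on the gene's own strand. The search was added after the windows had been read. On either strand the run was present in 30 of the 35116 windows (0.0854%), which belong to 29 genes, these 3 members among them. The run was picked because 3 members share it, so its presence in them was fixed by the search. The share over all windows is therefore no measure of how unusual it is among the members. In HLA-DMA no AGNAAC core leads into this run. A match of letters is a description of the reference sequence and is not evidence of binding in these cells, and a window without a match says only that these letters are missing there.

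**Figure D1:**
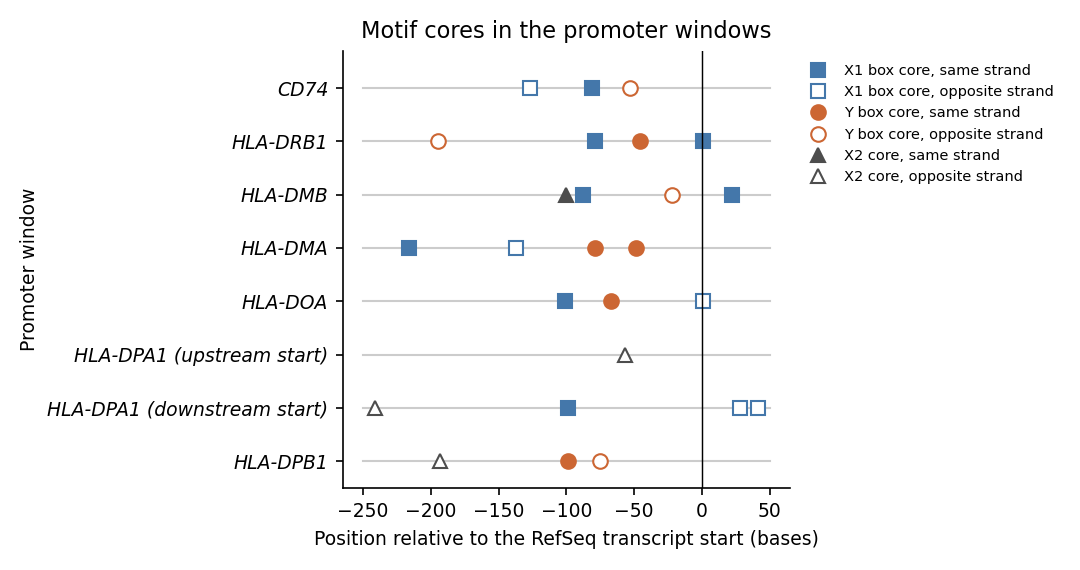
Position of each motif core (horizontal axis, bases relative to the RefSeq transcript start) in the 8 promoter windows of 7 members (rows), with filled symbols for the gene's own strand and open symbols for the opposite strand. Upstream X1 cores on the gene's own strand in HLA-DRB1, HLA-DMB, CD74, HLA-DOA and HLA-DPA1 lie between 79 and 101 bases before the start. That of HLA-DMA lies 216 bases before the start. HLA-DPB1 and the upstream start of HLA-DPA1 have no X1 core.

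The RT-R library held fewer scaled counts of the transactivator, of CD74 and of each class II chain among the members, while CTSS was not lower. Calls needed a minimum of 20 counts in 1 library or the other, a change of 2-fold or more after library sizes were scaled, and a 95% interval that excluded equal expression. 9 members reached the count minimum, all 9 of them in both libraries, and HLA-DOA did not. Of those 9, 8 were called lower and 0 higher, in a comparison in which 3.97% of 12644 measured genes were called lower and 6.89% higher. Because the members were chosen from this same comparison, that contrast describes the choice and supports nothing further. The median log2 ratio of the 9 was -1.78, against -0.013 over all measured genes. In a bulk library, fewer cells with the transcripts and less transcript per cell cannot be told apart.

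CIITA, the transactivator, had 137 counts in the parental library and 32 in the RT-R library. As scaled counts per 1000000 (CPM) this was 15.03 (12.6 to 17.8) against 3.15 (2.15 to 4.44), and the 2 intervals lay far apart. CIITA was 4.77-fold lower in RT-R (3.23 to 7.25), with a log2 ratio of -2.24. Only 46 of the 12644 measured genes had a lower log2 ratio. In the reference gene table CIITA overlaps DEXI, which had 226 parental and 359 RT-R counts and so went the other way. The use of strand in counting is not given in the sources used here, so reads from the 2 genes may not be fully separate. Of the 50-base words in the last 500 bases of CIITA's coding transcripts in GENCODE v29, 17.97% also occur in the transcript of AC133065.3.

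CD74, the invariant chain, was the most abundant member in both libraries, with 1963 parental and 774 RT-R counts. Its level was 215 CPM (206 to 225) in parental cells and 76.1 (70.9 to 81.7) in RT-R cells, a 2.83-fold lower value (2.60 to 3.08). Of the summed counts of CD74 and the 7 class II chains among the members, CD74 made up 46.5% (44.99% to 48.0%) in parental cells and 47.2% (44.7% to 49.6%) in RT-R cells, by exact binomial intervals. The 2 intervals overlapped, so no shift between CD74 and the sum of the chains was detectable at this depth. This does not hold for every single chain, as HLA-DPA1 was lower by a larger factor (4.15-fold, 3.10 to 5.61) than CD74.

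The DR chains were the most abundant of the peptide-presenting chains. HLA-DRA, the alpha chain of HLA-DR, had 879 parental and 417 RT-R counts and was 2.35-fold lower (2.09 to 2.65). HLA-DRB1, its beta chain, had 757 and 246, a 3.43-fold lower value (2.97 to 3.98). The beta chain thus fell further than the alpha chain, and the intervals of their ratios did not overlap. The count of HLA-DRA per count of HLA-DRB1 was 1.16 (1.05 to 1.28) in the parental library and 1.70 (1.44 to 1.99) in RT-R. How reads were divided among DRB genes is uncertain, since HLA-DRB1 shares sequence with HLA-DRB5 and HLA-DRB6: 9.53% of the 50-base words in the last 500 bases of its GENCODE v29 transcript also occur in transcripts of other genes. HLA-DRA shares none of its words.

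HLA-DP, another type of class II molecule, was lower on both chains. HLA-DPA1, its alpha chain, had 223 parental and 60 RT-R counts and was 4.15-fold lower (3.10 to 5.61). HLA-DPB1, its beta chain, had 203 and 65, a 3.48-fold lower value (2.62 to 4.68). The intervals of the pair overlapped, and HLA-DPA1 per HLA-DPB1 was 1.10 (0.904 to 1.34) in parental cells and 0.923 (0.639 to 1.33) in RT-R cells. The 2 genes overlap each other in the reference gene table, so their counts may not be fully separate either.

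The peptide editors were lower as well, at lower levels. HLA-DMA had 100 parental and 49 RT-R counts, 2.28-fold lower (1.60 to 3.27), and HLA-DMB had 84 and 26 counts, 3.60-fold lower (2.30 to 5.83). These 2 chains form HLA-DM, which removes the CD74 remnant from the groove, and the intervals of their ratios overlapped. HLA-DMA per HLA-DMB was 1.19 (0.882 to 1.61) in parental cells and 1.88 (1.15 to 3.16) in RT-R cells, with overlapping intervals. HLA-DOA, the alpha chain of HLA-DO, had 12 and 4 counts, a 3.35-fold lower value with an interval from 1.01 to 14.2. With a pseudocount of 5 in place of 0.5 its log2 ratio went from -1.62 to -1.01, so the size of its difference is poorly fixed. It was left uncalled because neither library reached 20 counts.

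CTSS, which encodes the protease cathepsin S, had 101 parental and 142 RT-R counts. Its level was 11.1 CPM (9.02 to 13.5) against 14.0 (11.8 to 16.5), a ratio of 1.26 with an interval from 0.970 to 1.64 that includes equal expression. It was the only member with more scaled counts in RT-R, and its interval did not overlap that of any of the 8 members called lower.

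**Figure D2:**
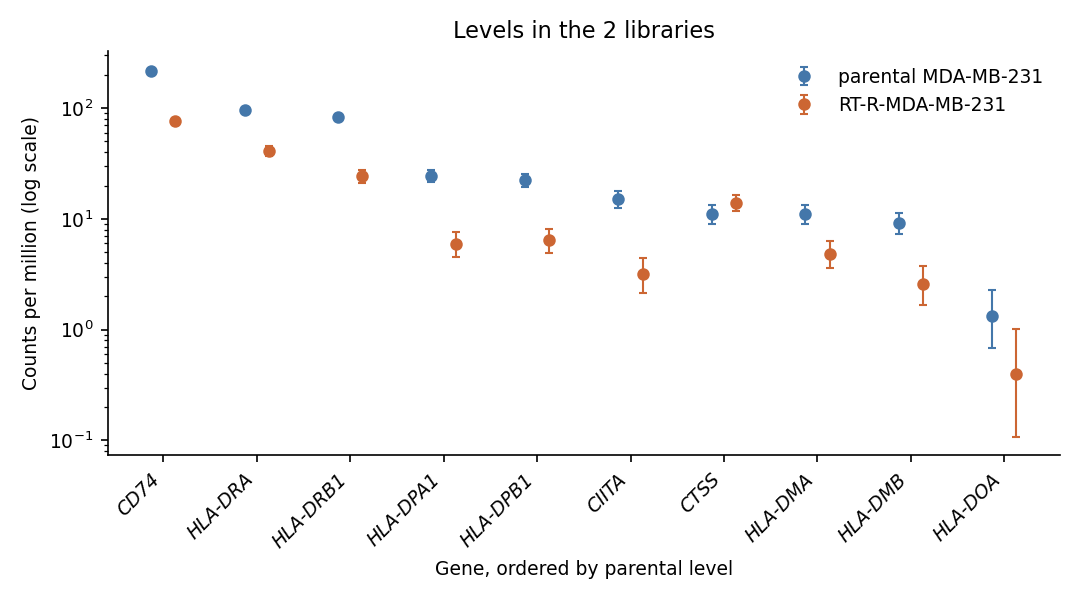
Scaled CPM (log axis) of the 10 members in the parental (blue) and RT-R (orange) library, 1 library each, with bars for 95% Poisson counting intervals. 9 members are lower in RT-R, with CD74 at 215 and 76.1 and CIITA at 15.03 and 3.15, and CTSS is at 11.1 and 14.0.

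The order of the members by level was largely kept. A 3' tag protocol yields about 1 tag per transcript, so CPM stand for transcripts and were not divided by gene length. In the parental library the order was CD74, HLA-DRA, HLA-DRB1, HLA-DPA1, HLA-DPB1, CIITA, CTSS, HLA-DMA, HLA-DMB and HLA-DOA. The neighbours HLA-DPA1 and HLA-DPB1 did not differ beyond counting error, nor did neighbours from CIITA through CTSS and HLA-DMA to HLA-DMB. In RT-R, CD74, HLA-DRA and HLA-DRB1 led in the same order, CTSS came next, and CIITA lay between HLA-DMA (4.82 CPM) and HLA-DMB (2.56), overlapping both. Among CD74 and the 7 chains, the share of HLA-DRA was 20.8% (19.6% to 22.1%) in parental cells against 25.4% (23.3% to 27.6%) in RT-R cells, the one share whose intervals lay apart.

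The 8 members called lower did not all fall by the same factor. Of the 28 pairs among them, 5 had ratio intervals that did not overlap. CIITA was lower by a larger factor than CD74 and HLA-DRA, HLA-DPA1 by a larger factor than CD74 and HLA-DRA, and HLA-DRB1 by a larger factor than HLA-DRA. The remaining 23 pairs overlapped, which does not show that those genes changed alike.

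**Figure D3:**
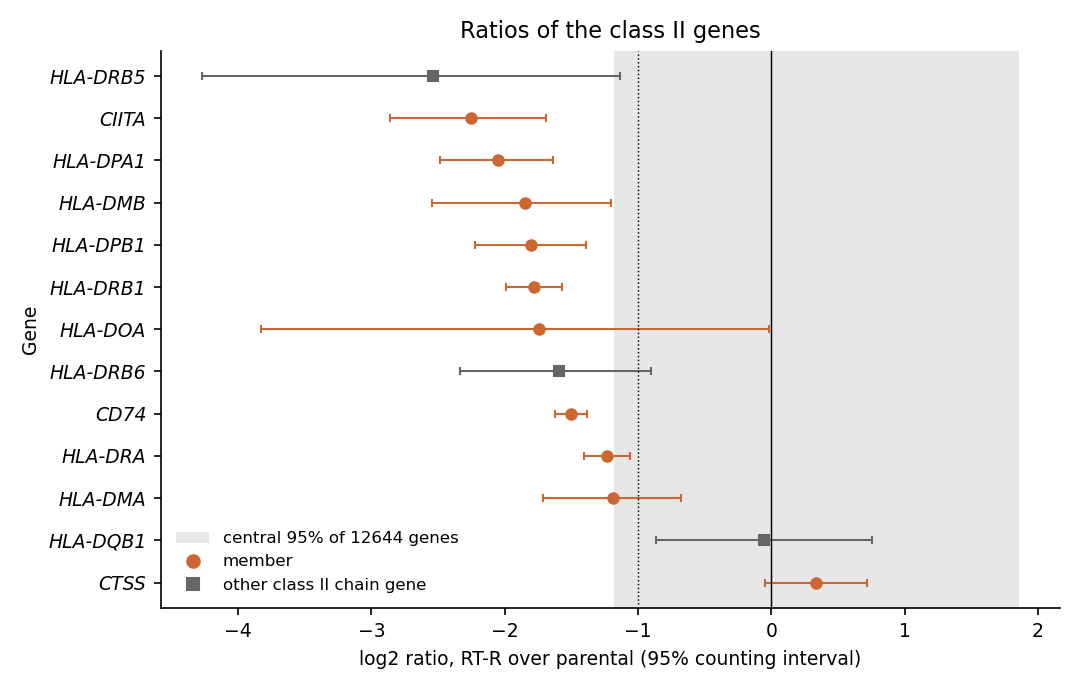
Log2 ratio of RT-R over parental counts (horizontal axis) for the 10 members (orange circles) and 3 other class II chain genes (grey squares), with 95% counting intervals, over a grey band from -1.18 to 1.86 that holds the central 95% of the 12644 measured genes. The dotted line marks a 2-fold lower value, and CTSS and HLA-DQB1 are the 2 genes with points near or above 0.

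Other class II chain genes gave a split picture. Of 10 genes on the list, 5 had no count in either library and 3 reached the minimum. HLA-DRB5, a further DR beta chain, had 26 parental and 5 RT-R counts and was 5.80-fold lower (2.19 to 19.3). HLA-DRB6, a DR beta pseudogene, had 65 and 24, a 3.02-fold lower value (1.87 to 5.05). By the word count used for HLA-DRB1, 1.33% of the words of HLA-DRB5 and 2.99% of those of HLA-DRB6 also occur in transcripts of other genes. Whether their counts came from HLA-DRB1 transcripts was not tested, so their lower values may not be separate from that of HLA-DRB1. The genotype of the lines is not given, so a gene without counts may be absent or not transcribed. HLA-DQB1, the beta chain of HLA-DQ, had 27 and 29 counts, a ratio of 0.963 with an interval from 0.550 to 1.69 that excludes a 2-fold lower value. Its partner HLA-DQA1 had 0 and 1 count, and HLA-DOB, the beta chain of HLA-DO, had 2 and 6.

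Of the 8 members called lower, 6 lie within the class II region of chromosome 6, so the genes between and beside them were compared. From HLA-DRA to HLA-DPB1, 7 measured genes that are not class II chains lie in the same stretch. Their log2 ratios ran from -0.54 to 0.50 with a median of -0.17, and 0 were called lower. The 6 members there ran from -2.04 to -1.18. Among the 7 were TAP1 (288 and 285 counts), a peptide transporter subunit of the class I pathway, PSMB8 (779 and 1230), an immunoproteasome subunit, and BRD2 (1903 and 2441), which lies next to HLA-DMA in this order. Adding the 15 measured genes on either side gave 37 genes that are not class II chains, with a median of -0.083 and a lowest value of -0.77. Of these 37, 0 were called lower and 2 higher (TNXB and PRRT1). Over all measured genes 3.97% were called lower and 6.89% higher, so these counts are not far from those shares. These genes were named after their values were seen.

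**Figure D4:**
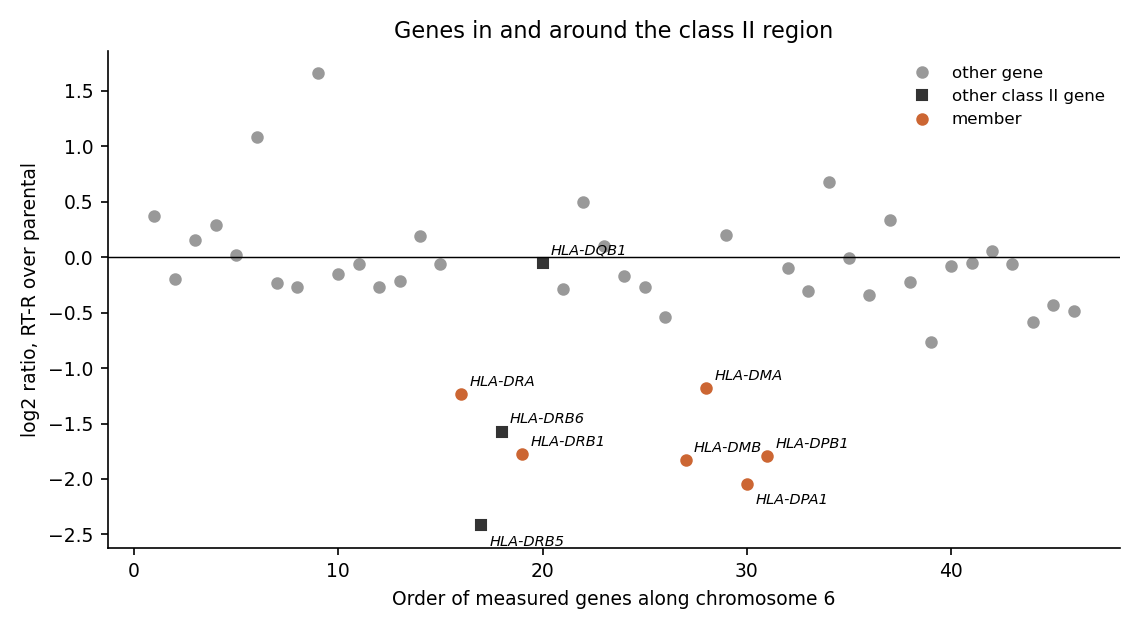
Log2 ratio of RT-R over parental (vertical axis) for 46 measured genes in their order along chromosome 6 (horizontal axis), from 15 genes before HLA-DRA to 15 after HLA-DPB1. The 6 members (orange) and HLA-DRB5 and HLA-DRB6 (black squares) lie below -1. Counts of HLA-DRB5 and HLA-DRB6 may not be fully separate from those of HLA-DRB1. HLA-DQB1, the remaining black square, lies at -0.053. The 37 genes of other kinds (grey) have a lowest value of -0.77.

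The 3 members outside chromosome 6 were set beside their neighbours in the same way. CIITA on chromosome 16 had 30 measured neighbours with a median log2 ratio of 0.13 and a lowest value of -0.63, and 0 of them had a lower ratio than CIITA. CD74 on chromosome 5 had 30 neighbours with a median of -0.10 and a lowest value of -1.85. Of these, 3 were called lower and 2 higher, beside 3.97% and 6.89% of all measured genes, and 1 had a lower ratio than CD74. For CTSS on chromosome 1 the neighbours had a median of 0.11 and ran from -1.36 to 1.40, and 21 of 30 had a lower ratio than CTSS, which lay inside their range. With the median of its neighbours subtracted, CIITA stood at -2.37, CD74 at -1.40, HLA-DRA at -1.16, HLA-DRB1 at -1.70, HLA-DPA1 at -1.91, HLA-DPB1 at -1.66, HLA-DMA at -1.05, HLA-DMB at -1.70 and CTSS at 0.23.

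The factors that recruit CIITA to class II promoters showed no common decrease. Of 8 genes for promoter-binding factors, all measured, 0 were called lower and 1 higher, with a median log2 ratio of 0.070. Over all measured genes 3.97% were called lower and 6.89% higher, so 0 or 1 call in a list this short is near those shares. RFX5, the DNA-binding subunit of the RFX complex, had 131 and 143 counts, and RFXANK, another subunit, had 294 and 307. RFXAP, the remaining subunit, had 25 and 85 counts and was 3.05-fold higher (1.93 to 4.97). NFYC (595 and 809 counts), a subunit of NF-Y, and CREB1 (473 and 531) had ratios of 1.22 (1.10 to 1.36) and 1.01 (0.888 to 1.14). Among 13 cofactors and chromatin regulators, 0 were called in either direction and the median was -0.13. The DNA methyltransferase gene DNMT1 had 3431 and 3684 counts and the deacetylase gene HDAC1 had 2385 and 2422. By fold alone, 12.6% of all measured genes were past 1.5-fold lower and 14.9% past 1.5-fold higher. Of the 13, 2 were past 1.5-fold lower and 2 past 1.5-fold higher, all short of the 2-fold rule. The lower ones were CREBBP, which encodes a histone acetyltransferase that works with CIITA (263 and 179 counts, ratio 0.610, 0.502 to 0.741), and EZH2, a histone methyltransferase (986 and 680, ratio 0.618, 0.560 to 0.683). The higher ones were the DNA methyltransferase genes DNMT3A (61 and 119, ratio 1.75, 1.27 to 2.42) and DNMT3B (172 and 332, ratio 1.73, 1.44 to 2.09).

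The list for the interferon-gamma route to CIITA, which holds both activators and inhibitors, had no gene called lower. Of 14 genes, 11 were measured, 0 were called in either direction, and the median log2 ratio was 0.42. With 3.97% of all measured genes called lower and 6.89% higher, 0 calls among 11 genes is near those shares. By fold alone, 4 of the 11 were above 1.5-fold higher and 0 below 1.5-fold lower. Over all measured genes those shares were 14.9% and 12.6%. IRF1, a transcription factor that acts on the CIITA promoter, had 503 and 812 counts and a ratio of 1.45 (1.29 to 1.62). The 4 genes past 1.5-fold higher were of both kinds. JAK1, a kinase of the receptor complex, had 464 and 840 counts and a ratio of 1.62 (1.45 to 1.82), and IFNGR1, a receptor chain, had 74 and 147 and a ratio of 1.78 (1.34 to 2.39). The inhibitors of the route SOCS3 (325 and 600 counts) and PIAS1 (60 and 125) had ratios of 1.66 (1.44 to 1.90) and 1.87 (1.36 to 2.59). IFNG itself had 0 counts in both libraries.

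Other genes that interferon-gamma induces had ratios on both sides of 1. Of 20 found in the tables, 14 were measured, with a median of 0.14. Beside 3.97% of all measured genes called lower and 6.89% higher, 0 of the 14 were called lower and 3 higher. These 3 were WARS, a tryptophan tRNA synthetase (556 and 1658 counts, ratio 2.67, 2.43 to 2.95), IRF9 (36 and 85, ratio 2.12, 1.42 to 3.22) and SERPING1, the C1 inhibitor (3 and 48, ratio 14.3, 4.62 to 72.0). PSMB10, an immunoproteasome subunit, had 451 and 433 counts. The guanylate-binding protein genes GBP1 (244 and 193 counts) and GBP2 (361 and 314) had ratios of 0.709 (0.584 to 0.860) and 0.780 (0.668 to 0.910), neither reaching 2-fold. CD274, which encodes the immune checkpoint ligand PD-L1, had the lowest ratio of the measured genes in this list, 0.594 (0.459 to 0.766) from 157 and 104 counts, and was the one gene past 1.5-fold lower.

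MHC class I genes, which present peptides to CD8+ T cells, were mostly close to equal. Of 14 measured genes of class I and its loading, 0 were called lower and 1 higher, with a median log2 ratio of -0.024. These counts are near the 3.97% and 6.89% of all measured genes called lower and higher. B2M, the common light chain, had 16283 and 17408 counts, a ratio of 0.959 (0.938 to 0.979). NLRC5, the class I counterpart of CIITA, had 110 and 138 counts, a ratio of 1.12 (0.869 to 1.46) whose interval lay above that of CIITA. HLA-F, which shares sequence with other class I genes, was the gene called higher, from 52 to 214 counts.

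Endosomal processing genes beyond the members were mixed. Of 13 measured, 2 were called lower and 1 higher, with a median log2 ratio of 0.22. Over all measured genes 3.97% were called lower and 6.89% higher. CTSZ, a cathepsin, had 2207 and 1167 counts, and AP1S2, an adaptor subunit of vesicle transport, had 1065 and 548. CTSV, a cathepsin able to trim the invariant chain in thymic epithelium, had 17 and 106 counts and was 5.59-fold higher (3.33 to 9.96). The abundant endosomal genes CTSD (10700 and 14165 counts) and CD63 (18114 and 20030) were within 2-fold of equal.

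**Figure D5:**
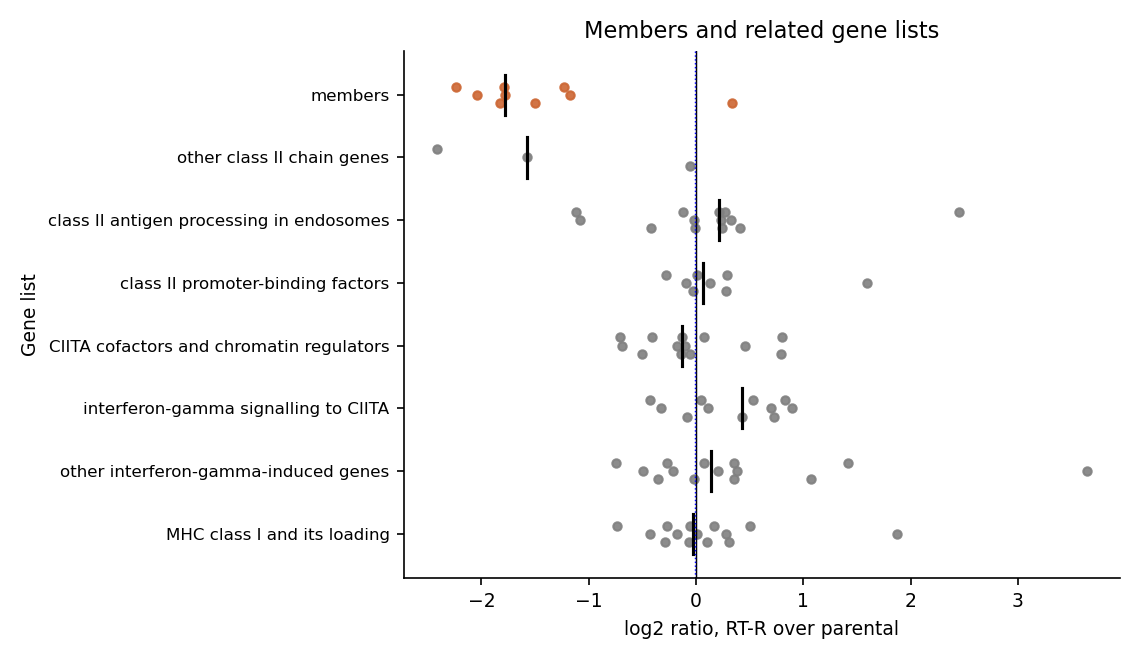
Log2 ratio of RT-R over parental (horizontal axis) for each measured gene of the members (orange) and of 7 related lists (grey), with a black bar at each list's median and a dotted line at the median of all measured genes. The median of the members is -1.78 and that of the other class II chain genes -1.57, and the medians of the other 6 lists lie between -0.13 and 0.42. The value of -1.57 is that of HLA-DRB6, whose counts may not be fully separate from those of HLA-DRB1.

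Since professional antigen-presenting cells carry much class II RNA, their markers were read in both libraries. Of 8 B cell markers, 2 reached 20 counts, CD22 (147 and 178) and BANK1 (16 and 26), and the summed level was 17.9 CPM in parental and 20.3 in RT-R cells, while MS4A1, CD79A and BLK were among those at 0 in both. Of 14 myeloid and dendritic markers, 2 reached the minimum, CD68 (346 and 452) and CD14 (14 and 39). The summed level was 42.1 and 49.4 CPM, most of it from CD68. Below the minimum, CSF1R went the other way, with 18 and 3 counts, 6.69-fold lower (1.95 to 35.5), and LYZ had 5 and 2. PTPRC, SPI1, FCER1G, AIF1, CD1C, CD80 and CD86 were at 0 in both. The defining leukocyte marker PTPRC and the B cell marker MS4A1 therefore had no count in either library. Of 8 T and NK cell markers, 0 reached the minimum. Among 5 endothelial markers PECAM1 had 223 and 50 counts, 4.97-fold lower (3.65 to 6.90), while TEK was at 0 in both and CDH5, VWF and KDR had at most 4 counts. The part of PECAM1-expressing cells in the class II difference was not tested.

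With only 2 libraries, likeness to CIITA could be measured only as the distance between log2 CPM in both. The members were left out of this ranking. The 3 nearest genes were IL17RC (131 and 31 counts, distance 0.079), TBXAS1 (152 and 30, distance 0.18) and FAM46C (117 and 30, distance 0.25). How near CD74 and the member class II chains lie to CIITA was therefore not ranked.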

How the data were processed

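Per the labels' protocols, total RNA of each line was made into a Lexogen QuantSeq 3' tag library. The authors deposited raw read counts per gene symbol, 1 table per library. The submitters' processing notes name Bowtie2, bedtools, hg19 and bcl2fastq (version 2.20.0.422). Annotation, strand use and the treatment of reads with several matches, which bear on HLA genes, were not given in the sources used here. Of the members, 7 had repeated rows, and in each of them a single row held all counts (44 of 54 member rows held none), so repeated symbols were summed without effect.

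Scaling used TMM factors from edgeR 4.0.16 (R 4.3.3). The RT-R library counted as 1.12 times the size of the parental one, where total counts alone give 1.08. Log2 ratios used a pseudocount of 0.5, and the fold rule was applied to them. Ratios carry exact conditional (Clopper-Pearson) 95% intervals and levels exact Poisson intervals (scipy 1.17.1, Python 3.11.15). The calculations were tested on simulated libraries. No test across samples was possible, and no p-value was computed. Members and lists were chosen with earlier results of these data known. From each list the text names the genes called and up to 2 with the most parental counts; further genes named were chosen after their values were seen. Values of some list genes are not reported here, though the lists' counts and medians include them. Chromosomal neighbours, 15 measured genes to either side, followed RefSeq order (GRCh38.p14, 98.5% of measured genes placed). Shared 50-base words were counted in GENCODE v29 transcripts. As alternatives, sizes came from totals, DESeq2 1.42.0 or upper quartiles, and the others were no minimum and a minimum of 100 counts, thresholds of 1.5-fold and 4-fold, the first row of repeated symbols, a pseudocount of 5, subtraction of chromosomal neighbours and leaving out the most changed member.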

Additional observations from a re-analysis of the deposited data

How the results depend on the processing

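The count of members called lower stayed at 8 under total-count, median-of-ratios and upper-quartile scaling, the first row of repeated symbols and a 1.5-fold threshold (11.9% of all measured genes called lower). It was 9 of 10 with no minimum count (3.57% of all genes), 7 of 8 with a minimum of 100 (2.81%), and 2 of 9, CIITA and HLA-DPA1, at a 4-fold threshold (0.53%). No member was called higher under any of these. The median log2 ratio of the members ran from -1.78 to -1.64, and was -1.66 after subtraction of neighbours and -1.64 without CIITA. All 60 recomputed log2 ratios of single members stayed inside their counting intervals and kept their direction, HLA-DOA moving furthest, to -1.01 with a pseudocount of 5. The counts of genes called in the pathway lists were recomputed under the 3 other scalings, a choice made after seeing the data. None of these counts changed. No paired analysis was possible because each line has 1 library and no replicate number. Depth limits HLA-DOA most, with 12 and 4 counts, and culture-to-culture variation was not measured for any gene.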
